A study of Mus musculus with 6 samples.

Results

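The reactive astrocyte genes described here were Gfap, Vim, Lcn2, Serpina3n, Osmr, Cd44, Timp1, S1pr3 and Steap4. They were taken by gene symbol, but the choice was made with earlier results of these data known. All 9 were found among the 23366 genes of the expression table, and 8 of them were among the 14385 genes that were tested. The minimum for testing was an average of 0.5 FPKM over all mice, FPKM being fragments per kilobase of transcript scaled to the fragments mapped in the library. Steap4 was under that minimum and is given as values.

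Polyadenylated RNA of the brain cortex was sequenced from 6 C57BL/6 mice, 1 library per mouse, as 3 control mice (A1, A2 and A3) and 3 microglia-depleted mice (A4, A5 and A6) at 10 days after depletion. The comparison asks how cortical gene expression differs after the acute loss of microglia, the resident macrophages of the brain, and their return. Depleted mice were CX3CR1-CreERT2+/- iDTR+/- and control mice were CX3CR1-CreERT2+/- littermates without iDTR, an allele that yields the diphtheria toxin receptor only after Cre has removed a stop sequence. All mice carried 1 CX3CR1-CreERT2 allele and received tamoxifen, which activates this Cre. Depletion was by diphtheria toxin, and the methods do not state whether the control mice also received the toxin. The CX3CR1 promoter is active in microglia but also in other macrophages and in monocytes, so the Cre can act outside microglia. The study describes the mice as adult and matched for age and sex. The age in weeks is not given in the sources used here. Sex-linked genes did not follow this matching: A4 had RNA of Y-linked genes beside Xist, the RNA of the inactive X chromosome. A3 had low Xist without Y-linked RNA, and the values are given with Timp1.

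Astrocytes respond to injury, infection and inflammation by a change of state called reactivity, in which the cell body and processes thicken and intermediate filament proteins build up. Cytokines that signal through the gp130 receptor chain and the transcription factor STAT3 are known inducers of this state, as are interleukin-1, tumor necrosis factor and the complement protein C1q, which microglia release. None of the 9 genes belongs to astrocytes alone: Vim, Cd44 and Timp1 are also made by vascular, meningeal and immune cells, and Lcn2 by neutrophils and endothelium.

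Promoter windows of 300 bases, from 250 before to 50 after a RefSeq start site, were taken from RefSeq on build GRCm38.p6 for all 9 genes. The gene spans given with each gene below are from another annotation, GENCODE on GRCm38, and cover all transcripts, so a span can begin upstream of the RefSeq start site. The site lay 3712 bases downstream of the 5′ end of the span for Gfap, 656 for Osmr and 15 for Steap4. The 3 windows that held a searched motif are shown. Capitals mark the STAT dimer motif TTCNNNGAA in Gfap and Steap4, and the AP-1 motif TGANTCA in Osmr. The windows are chr11:102897151-102897450 on the minus strand for Gfap, chr5:7960222-7960521 on the plus strand for Steap4 and chr15:6874264-6874563 on the minus strand for Osmr.
Gfap: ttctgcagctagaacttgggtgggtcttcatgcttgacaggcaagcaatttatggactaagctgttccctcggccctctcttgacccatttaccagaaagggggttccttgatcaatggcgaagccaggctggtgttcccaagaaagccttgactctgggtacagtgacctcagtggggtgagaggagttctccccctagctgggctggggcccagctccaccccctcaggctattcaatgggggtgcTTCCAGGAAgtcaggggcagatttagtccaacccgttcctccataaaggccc
Steap4: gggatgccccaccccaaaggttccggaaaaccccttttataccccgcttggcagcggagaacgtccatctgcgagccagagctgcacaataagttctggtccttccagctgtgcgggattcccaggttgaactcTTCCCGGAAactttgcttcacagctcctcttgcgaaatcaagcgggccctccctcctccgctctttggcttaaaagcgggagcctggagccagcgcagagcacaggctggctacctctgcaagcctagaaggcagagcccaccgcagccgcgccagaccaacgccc
Osmr: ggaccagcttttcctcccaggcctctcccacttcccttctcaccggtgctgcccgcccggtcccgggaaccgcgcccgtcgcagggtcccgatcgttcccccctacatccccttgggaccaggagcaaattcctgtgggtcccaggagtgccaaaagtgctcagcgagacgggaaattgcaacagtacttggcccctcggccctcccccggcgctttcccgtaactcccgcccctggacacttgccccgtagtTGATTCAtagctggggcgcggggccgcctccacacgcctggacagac
The STAT dimer motif was present on either strand in 8.3% of 32851 such windows and in 2 of the 9, starting 2 bases upstream of the RefSeq start site of Gfap (position 102897200) and 116 bases upstream of that of Steap4 (position 7960472). The AP-1 motif was present in 7.81% of windows and in 1 of the 9, starting 3 bases after the RefSeq start site of Osmr (position 6874313). The core of the interferon-stimulated response element, searched as a pair of GAAA blocks with 2 bases between them, was present in 3.44% of windows and in 0 of the 9. Such matches describe letters in a window and are not binding sites.

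Gfap and Osmr were higher in each depleted mouse than in any control mouse, 2.23 and 2.25 times by group mean, but neither passed the test across all genes. Of the 8 genes tested, 0 passed an adjusted p of 0.1 (limma with Benjamini-Hochberg adjustment over 14385 genes), and 2, Gfap and Osmr, had an unadjusted p under 0.05. Over all genes tested, 0.0278% passed the adjusted threshold and at an unadjusted p under 0.05, 4.79% were higher and 5.74% were lower in depleted mice. All 8 genes tested had a log2 difference above 0, against 48.0% of all genes tested, though Lcn2 reached the test only through A4. A single depleted mouse, A4, held the highest value of 8 of the 9 genes. This mouse also differed from the others in Y-linked RNA, and the part of this was not tested. Without A4, 6 of the 8 genes tested had a difference above 0, against 47.9% of all genes tested. Steap4, which was not tested, was higher by mean FPKM in depleted mice with A4 and lower without it. In bulk tissue, more cells of a type and more RNA per cell cannot be told apart.

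**Figure D1:**
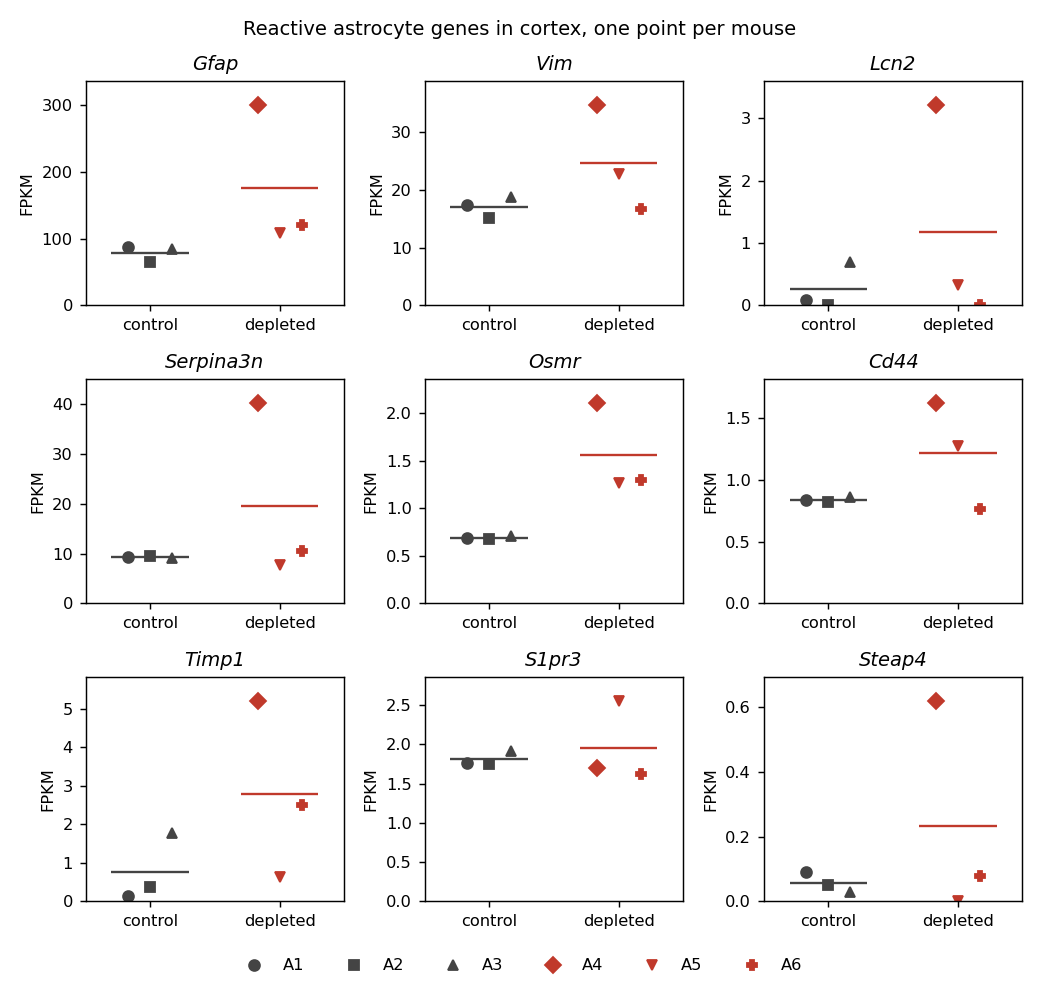
FPKM of each of the 9 genes in the 6 mice, with 1 panel per gene, a point for each mouse, a horizontal line at each group mean and the vertical axis starting at 0. Gfap and Osmr have no overlap between the 3 control and the 3 depleted mice, and A4 is the highest mouse in every panel except S1pr3.

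The control levels spanned a 1394-fold range of FPKM, a unit that is per length and so allows genes to be compared. From high to low by control mean, the order was Gfap, Vim, Serpina3n, S1pr3, Cd44, Timp1, Osmr, Lcn2 and Steap4. Gfap alone made up 71.9% of the summed FPKM of the 9 genes in control mice and 76.8% in depleted mice. Among neighbors in this order, Timp1 was not separated from Cd44 or from Osmr, because it ranged from 0.15 to 1.77 FPKM in control mice, around the values of both. Osmr and Lcn2 also overlapped, as did Lcn2 and Steap4. By control mean, Gfap stood at percentile 93.3 of the genes tested, Vim at 67.5 and Serpina3n at 50.1, while the other 6 were at or below percentile 16.5.

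Gfap encodes the glial fibrillary acidic protein, the intermediate filament that defines astrocytes in tissue stains (chr11:102887336-102900912, minus strand). It measured 88.28, 64.48 and 84.21 FPKM in control mice (in the order A1 to A3, as below), against 300.31, 108.51 and 120.13 FPKM in depleted mice (A4 to A6). The lowest depleted mouse was above the highest control mouse, and A4 was far above the other depleted mice. The group means were 79.0 ± 12.7 and 176 ± 108 FPKM (SD, n = 3 each), a difference of 1.00 on the log2(FPKM + 1) scale (SE 0.34, 95% interval 0.22 to 1.78, limma adjusted p = 0.396). Without A4 the difference was 0.54 with an interval of 0.24 to 0.84 and a limma adjusted p of 0.219. A4 stood at 3.8 times the control mean, and A5 and A6 together at 1.45 times. The exact permutation test over mice gave p = 0.1, two-sided, the smallest value that 3 against 3 mice allow.

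Vim encodes vimentin, an intermediate filament protein that immature and reactive astrocytes assemble together with Gfap (chr2:13573927-13582826, plus strand). Its values were 17.36, 15.1 and 18.74 FPKM in control mice and 34.72, 22.83 and 16.75 FPKM in mice A4 to A6. A4 and A5 were above every control mouse, while A6 lay inside the control range. The means were 17.1 ± 1.84 and 24.8 ± 9.14 FPKM (SD, n = 3 each), with a log2 difference of 0.46 (interval -0.052 to 0.97, limma adjusted p = 0.513). This difference was 0.19 without A4 and 0.70 without A6. Of the other intermediate filament genes listed as partners, Synm (synemin), Prph (peripherin) and Nes (nestin) differed by 0.18, 0.023 and 0.0098 on the log2 scale and Ina (internexin) by -0.15, all with overlapping groups. Des (desmin) was under the minimum for testing.

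Osmr encodes the oncostatin M receptor, which pairs with gp130 to signal through STAT3 (chr15:6813577-6874969, minus strand). It had the lowest control SD of the 9 genes on the log2(FPKM + 1) scale, with values of 0.69, 0.68 and 0.71 FPKM, and measured 2.11, 1.27 and 1.3 FPKM in mice A4 to A6. All 3 depleted mice were above all control mice, with A5 and A6 close to each other. The means were 0.693 ± 0.0153 and 1.56 ± 0.477 FPKM (SD, n = 3 each), a log2 difference of 0.58 (SE 0.17, interval 0.19 to 0.97, limma adjusted p = 0.378). Without A4 it was 0.43 (interval 0.088 to 0.78, limma adjusted p = 0.309), so its direction did not rest on A4. The pseudocount of 1 holds this difference down at a low level, and with a pseudocount of 0.1 it was 1.03. From the spacing of the low values, the Osmr levels were estimated to rest on 55, 76 and 70 fragments in control mice and 158, 25 and 80 in A4 to A6. The exact permutation p was again 0.1.

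Cd44, a cell surface receptor for hyaluronan, and S1pr3, a receptor for sphingosine-1-phosphate, did not separate the groups. Cd44 (chr2:102811141-102901665, minus strand) measured 0.84, 0.82 and 0.86 FPKM in control mice and 1.62, 1.27 and 0.76 FPKM in mice A4 to A6. Here A6 was below every control mouse and the other depleted mice were above. The 95% Poisson intervals, which rest on estimated fragments and cover counting error only, were 0.563 to 1.01 FPKM in A6 and 0.816 to 1.86 FPKM in A5. Both held every control value, while that of A4, 1.34 to 1.93 FPKM, lay above them. The log2 difference was 0.25 (interval -0.16 to 0.66, limma adjusted p = 0.649), and 0.12 without A4. S1pr3 (chr13:51408639-51422797, plus strand) measured 1.76, 1.75 and 1.92 FPKM in control mice and 1.70, 2.55 and 1.62 FPKM in mice A4 to A6. It was the exception among the 9, since A5 rather than A4 was the highest mouse and both A4 and A6 were below every control mouse. The Poisson intervals of A4 and A6, 1.39 to 2.07 and 1.29 to 2.01 FPKM, held every control value. That of A5, at an estimated 40 fragments, was 1.81 to 3.46 FPKM and held the value of A3. The log2 difference of S1pr3 was 0.06 (interval -0.30 to 0.42, limma adjusted p = 0.915), and -0.079 without A5.

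Serpina3n encodes a secreted serine protease inhibitor, and had the largest ratio of A4 to the control mean among the 9 genes on the log2(FPKM + 1) scale (chr12:104406729-104414329, plus strand). It measured 9.31, 9.50 and 9.14 FPKM in control mice and 40.15, 7.63 and 10.53 FPKM in mice A4 to A6. A4 was 4.31 times the control mean, whereas A5 lay below and A6 above the narrow control range. The Poisson intervals of A5 and A6, 5.81 to 9.98 and 9.23 to 11.9 FPKM, both reached into that range. The means of 9.32 ± 0.18 and 19.4 ± 18.0 FPKM (SD, n = 3 each) gave a log2 difference of 0.63 (interval -0.48 to 1.74, limma adjusted p = 0.666), which was -0.048 without A4. Serpina3n has near-identical relatives, so fragments could be shared among them in counting. The 10 other Serpina3 genes in the table reached at most 0.75 FPKM in any mouse.

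Lcn2 encodes lipocalin 2, a secreted protein that binds iron-carrying siderophores (chr2:32384633-32388252, minus strand). It measured 0.08, 0 and 0.70 FPKM in control mice and 3.21, 0.33 and 0 FPKM in mice A4 to A6. Only A4 was above the control range, and A6 was listed at 0. Its log2 difference was 0.54 (interval -0.59 to 1.66, limma adjusted p = 0.718), -0.086 without A4 and 0.95 without A6. Lcn2 reached the test only through A4, since the mean of the other mice was 0.222 FPKM. The estimated fragments were 40 in A4, 12 in A3 and at most 1 in each other mouse. The 95% Poisson interval of A4 was 2.29 to 4.36 FPKM and that of A3 was 0.375 to 1.27 FPKM, covering counting error only. For the mice at 0, a limit of 3 fragments was 0.162 FPKM in A2 and 0.293 FPKM in A6.

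Timp1, a secreted inhibitor of matrix metalloproteinases, varied widely in both groups (chrX:20870166-20874735, plus strand). Its values were 0.15, 0.38 and 1.77 FPKM in control mice and 5.20, 0.63 and 2.50 FPKM in mice A4 to A6. A4 and A6 were above every control mouse, and A5 was below control mouse A3. The means were 0.767 ± 0.876 and 2.78 ± 2.30 FPKM (SD, n = 3 each), with a log2 difference of 1.00 (interval -0.11 to 2.12, limma adjusted p = 0.513). This was 0.54 without A4, 1.51 without A5 and 1.83 with a pseudocount of 0.1. The estimated fragments were 59 in A4 and 2 in A5, whose Poisson interval of 0.0824 to 2.46 FPKM covered every control value. Timp1 is X-linked, and sex-linked genes did not follow the stated matching: Xist, the RNA of the inactive X chromosome, was 4.74 FPKM in A3 against 30.9 to 46.7 FPKM in the others. The sum of Ddx3y, Eif2s3y, Kdm5d and Uty, which are on the Y chromosome, was 5.56 FPKM in A4 and at most 0.16 FPKM in the others. The part of this in any result was not tested.

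Steap4 encodes a metalloreductase of the cell membrane that is induced by inflammation (chr5:7960457-7982213, plus strand). It measured 0.09, 0.05 and 0.03 FPKM in control mice and 0.62, 0 and 0.08 FPKM in mice A4 to A6. Only A4 was above the control range, at an estimated 27 fragments with a Poisson interval of 0.413 to 0.912 FPKM. In A5 it was listed at 0, where 3 fragments would be 0.269 FPKM, a limit above every control value.

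**Figure D2:**
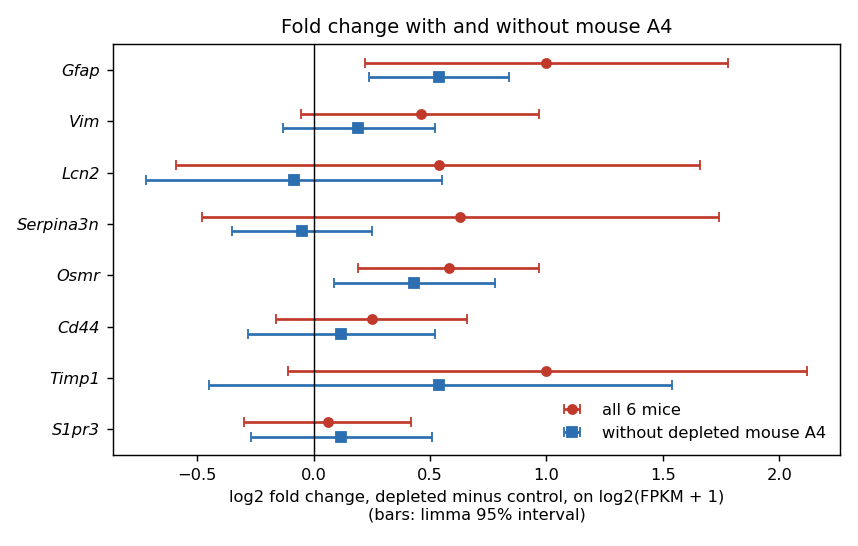
Difference between depleted and control mice on the log2(FPKM + 1) scale for the tested genes, with 95% intervals, for all mice and without A4. With all mice the intervals of Gfap and Osmr lie above 0, and without A4 the values of Lcn2 and Serpina3n are below 0.

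The depleted mice did not show these genes evenly. A4 was above every control mouse in 8 of the 9 genes, A5 in 5 and A6 in 4, against 36.0%, 29.4% and 32.9% of the genes tested. In A4, 6 of the 9 were at least 2-fold above the highest control mouse, against 2.38% of the genes tested, while in A5 and A6 it was 0 of the 9. Both counts of A4, the 8 and the 6, include Steap4, which was under the minimum for testing. They also include Lcn2, which reached the test only through A4, so these counts are not like for like with the shares. A4 held the highest value of 26.9% of the genes tested. The median of the 9 log2 ratios to the control mean was 0.98 for A4, 0.30 for A5 and 0.032 for A6, while over all genes tested it was between -0.013 and -0.0044 in these mice. A5 and A6 were both above every control mouse in 2 of the 9 genes, Gfap and Osmr, against 14.5% of the genes tested. A5 exceeded A6 in 4 genes and A6 exceeded A5 in 5.

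**Figure D3:**
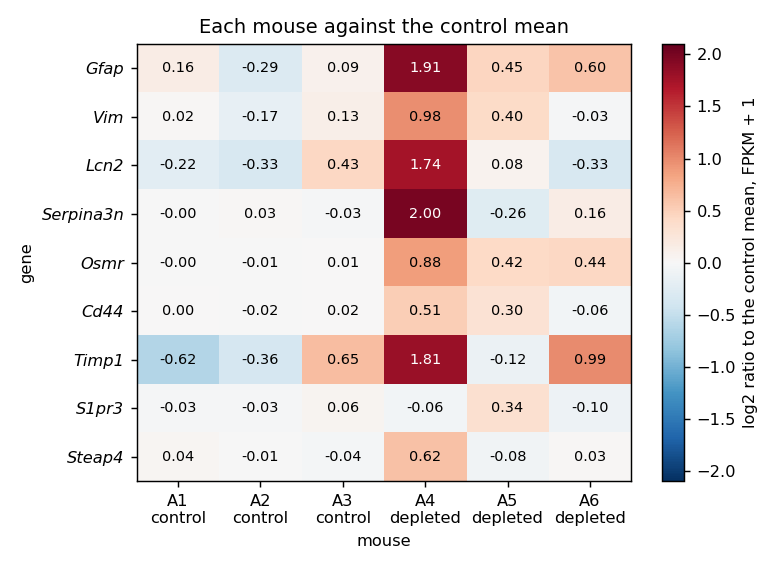
Color map, with rows for genes and columns for mice, of the log2 ratio of each of the 9 genes in each mouse to the mean of the control mice, on the log2(FPKM + 1) scale. A4 has the largest ratio for every gene except S1pr3, with 2.0 for Serpina3n and 1.91 for Gfap, while A5 and A6 are 0.45 and 0.60 for Gfap.

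The groups did not overlap in 2 of the 9 genes, both higher in depleted mice, whereas 8.21% of the genes tested were apart with depleted mice higher and 9.38% with depleted mice lower. All 9 genes had a larger SD in depleted than in control mice on the log2 scale, as did 75.8% of the genes tested. For Serpina3n the SD was 0.025 in control and 1.20 in depleted mice, the latter at percentile 99.6 of the genes tested. The median SD of the genes tested was 0.10 in control and 0.17 in depleted mice. In control mice the SD was already high for Timp1, Lcn2 and Gfap, at 0.67, 0.41 and 0.24, or percentiles 99.7, 98.6 and 92.9.

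Other genes used to describe reactive astrocytes leaned the same way in part, and none of them passed the adjusted threshold (limma). Of 18 other genes listed here as pan-reactive, 16 were tested and all 16 were higher on average, against 48.0% of all genes tested. At an unadjusted p under 0.05 (limma), 3 were higher, against 4.79% of all genes tested. Their median log2 difference was 0.15, against -0.0085 for all genes tested. Without A4, 8 of the 16 were higher and the median was 0.031. Cxcl10, a chemokine that attracts T cells and is induced by interferon, had the largest difference at 2.69 (limma adjusted p = 0.37), with 1.23, 0.13 and 0.69 FPKM in control mice and 42.11, 5.07 and 3.38 FPKM in mice A4 to A6. Nes had the smallest, at 0.0098. Fbln5, Cd109, Stat3, Socs3, Nes and Synm of this list are also in other lists described here, so the lists are not independent of each other.

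Of 12 genes associated with astrocytes in neuroinflammation, 11 were tested and 9 were higher on average, against 48.0% of all genes tested. For 4 of the 11, the groups were apart with depleted mice higher, against 8.21% of all genes tested. These were H2-D1, an MHC class I gene, Psmb8, an immunoproteasome subunit, and the interferon-induced GTPases Gbp2 and Iigp1, with log2 differences of 0.96, 1.27, 1.24 and 1.42. H2-D1 measured 20.9, 19.22 and 24.57 FPKM in control mice and 55.96, 40.59 and 34.32 FPKM in mice A4 to A6 (limma adjusted p = 0.283). The lowest of this list was Serping1, an inhibitor of complement C1, at -0.12. The list median was 0.34 with all mice and 0.11 without A4. All 4 of these separated genes are known targets of interferon. In the type I interferon list, 10 of 10 genes were higher with groups apart, against the same 8.21% of all genes tested. That list had a median of 1.86, or 1.03 without A4, from Ifit3 at 2.30 to Ifi44 at 1.18, with 9 at an unadjusted p under 0.05 and 0 past the adjusted threshold. Its summed level was 21.6 to 33.4 FPKM in control mice and 67.4 to 397.4 FPKM in depleted mice, highest in A4. Its part in the reactive astrocyte values was not tested.

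Of the 12 genes associated with astrocytes after ischemia, 6 were tested. These 6 gave no such lean, with 3 higher and 3 lower and a median of 0.019. The rest were under the minimum for testing. By mean FPKM, Ptx3, Tgm1, Cd109, Clcf1 and B3gnt5 of these were higher in depleted mice, and Slc10a6 was lower. Cd14, a co-receptor for bacterial lipopolysaccharide, was highest at 0.29, and Emp1, an epithelial membrane protein, was lowest at -0.11.

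**Figure D4:**
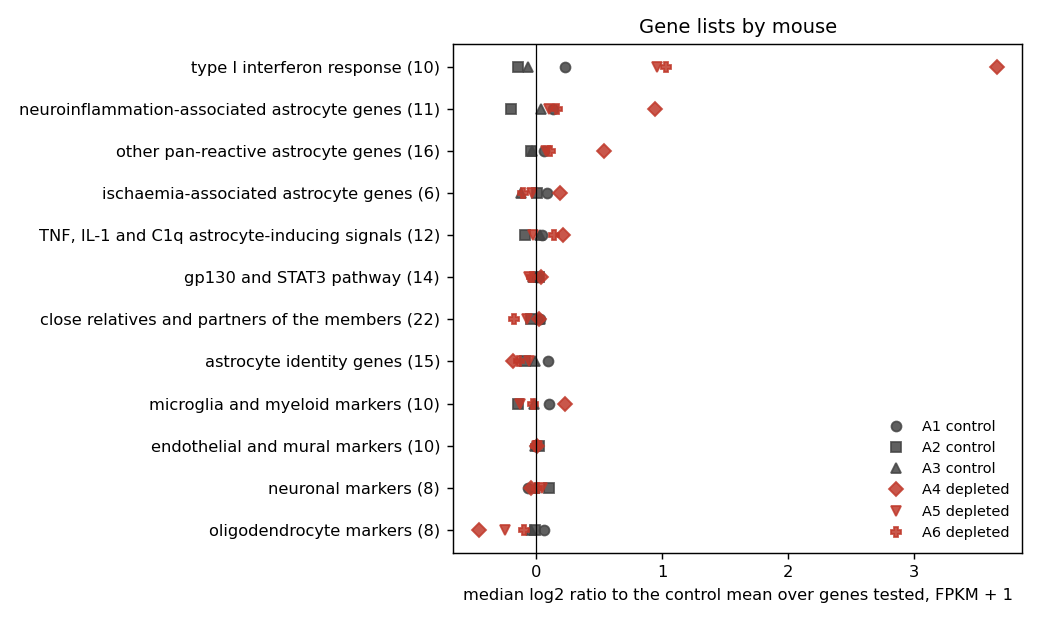
Median log2 ratio to the control mean in each mouse, over the tested genes of 12 lists other than the 9 genes, on the log2(FPKM + 1) scale, with the number of genes tested in parentheses. A4 is at 3.66 for the interferon genes, 0.94 for the neuroinflammation-associated genes and -0.19 for the astrocyte identity genes.

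The gp130 and STAT3 pathway, which Osmr feeds, was split. Of 19 genes, 14 were tested, 7 higher and 7 lower, with a median of -0.0049 and 0 at an unadjusted p under 0.05. The ligands Lif, Il6, Osm, Clcf1 and Il11 were under the minimum. Stat3 and Socs3, the feedback inhibitor that STAT3 induces, differed by 0.037 and 0.081. Cntf, a ligand of the pathway, was highest at 0.46 (limma adjusted p = 0.634), with 4.19 FPKM in A6 and at most 1.65 FPKM in the other mice. The receptor chains Lifr and Cntfr were lower in each depleted mouse than in any control mouse. These 2 of the 14 compare with 9.38% of all genes tested that were apart with depleted mice lower. Lifr measured 6.1, 5.95 and 5.42 FPKM in control mice and 5.35, 4.26 and 5.32 FPKM in depleted mice, a difference of -0.20 (limma adjusted p = 0.595). Cntfr differed by -0.15 (limma adjusted p = 0.557).

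Of 15 genes for tumor necrosis factor, interleukin-1, C1q and transforming growth factor beta signals, 12 were tested and 9 were higher, with a median of 0.048. C1qa, C1qb and C1qc, the chains of C1q, differed by 0.69, 0.63 and 0.63, and Tgfbr2, a receptor for transforming growth factor beta, by 0.22. The groups did not overlap for these 4 of the 12, with depleted mice higher, against 8.21% of all genes tested. None of the 4 passed the adjusted threshold (C1qa limma adjusted p = 0.37). Il1rap, the accessory chain of the interleukin-1 receptor, was lowest at -0.12, and Tnf was listed at 0 in every mouse. Il1a and Il1b, which encode interleukin-1, were also under the minimum for testing. Il1b measured 0.1, 0.37 and 0 FPKM in control mice and 0.65, 0.42 and 0.4 FPKM in mice A4 to A6. The groups of Il1b did not overlap, while those of Il1a did.

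Among 36 relatives and binding partners of the 9 genes, 22 were tested, with 8 higher, 14 lower and a median of -0.072. Groups were apart for 2 of the 22 with depleted mice higher and for 3 with depleted mice lower. Over all genes tested these shares were 8.21% and 9.38%, so both counts are near the share of all genes. Timp2, a relative of Timp1, was higher without overlap, at 104.68, 103.01 and 108.03 FPKM in control mice and 142.17, 114.43 and 115.92 FPKM in mice A4 to A6, a difference of 0.23 (limma adjusted p = 0.451). Cd63, a cell surface partner of Timp1, differed by 0.32 (limma adjusted p = 0.4), also without overlap. S1pr5, a sphingosine-1-phosphate receptor of oligodendrocytes, was lower without overlap, at 7.94, 7.16 and 7.57 FPKM in control mice and 5.89, 5.59 and 5.68 FPKM in depleted mice, a difference of -0.35 (limma adjusted p = 0.378). Sphk2, which makes sphingosine-1-phosphate, and Slc22a17, a receptor for lipocalin 2, were also lower without overlap, by -0.29 and -0.11.

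Astrocyte identity genes did not share the direction of the reactive genes. Of 15 tested, 12 were lower and 3 higher on average, with a median of -0.12, or -0.089 without A4. Their summed level was 2339.1 to 2583.1 FPKM in control mice and 2164.3 to 2336.4 FPKM in depleted mice, lowest in A4. Groups were apart with depleted mice lower for Aldoc, Gja1, Glul, Slc4a4 and Acsl6, from -0.27 for Slc4a4 to -0.087 for Glul. They were apart with depleted mice higher for Sox9, an astrocyte transcription factor, at 0.32 (limma adjusted p = 0.497). Of all genes tested, 9.38% were apart with depleted mice lower and 8.21% with depleted mice higher.

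Markers of other cells that can express these genes were measured as follows, and their part in the values was not tested. Of the 8 monocyte, neutrophil and T cell markers, 3 were tested, with a summed level of 3.2 to 5.25 FPKM in control and 1.53 to 6.74 FPKM in depleted mice, from Ly6c2 at 0.62 to S100a9 at -0.64. Within this list A4 was the highest mouse for Ly6c2, Plac8, Ngp and Cd3g, but below every control mouse for S100a8 and S100a9, at 0.74 and 0.3 FPKM. Plac8 measured 0.49, 0.14 and 0 FPKM in control mice and 2.28, 0 and 0 FPKM in depleted mice, and Ngp 0.29, 0.08 and 0 FPKM against 0.81, 0 and 0 FPKM. The 10 endothelial and mural markers summed to 64.2 to 71.4 and 60.4 to 63.4 FPKM, from Pecam1 at 0.34 to Rgs5 at -0.40. The 8 meningeal and fibroblast markers summed to 54.8 to 61.9 and 40.5 to 52.3 FPKM, from Dcn at 0.026 to Igf2 at -0.66, and 7 of them were lower in depleted mice. Of 9 choroid plexus and ependymal markers, 8 were tested and 7 were lower, with sums of 174.9 to 330.3 and 52.5 to 77.4 FPKM, set mainly by Ttr at -1.91 (limma adjusted p = 0.151), while Foxj1 was at 0.017. The 10 microglia and myeloid markers summed to 98.8 to 120.3 and 101.4 to 136.2 FPKM, from Aif1 at 0.74 to Fcrls at -0.90.

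Neuronal markers summed to 3007.8 to 3437.6 FPKM in control and 2771.0 to 3100.3 FPKM in depleted mice, with 4 of 8 higher, from Gad1 at 0.056 to Nrgn at -0.33. Oligodendrocyte markers summed to 2815.9 to 3070.4 and 2470.0 to 2559.6 FPKM, and all 8 were lower in depleted mice, from Cldn11 at -0.071 to Mag at -0.47. Over all genes, 4 passed the adjusted threshold (limma), all higher in depleted mice: 2700060E02Rik, BC002163, and Gm20878 and Gm21586, which held equal values in every mouse. The estimated depth was 3530000 fragments in A5 and 11200000 to 20200000 in the other mice, so low values in A5 carry the widest error. These depths were inferred from the spacing of low values. That of A5 is far below the read coverage that the methods of the study state per sample, and the reason was not tested.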

How the data were processed

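Per the labels and the methods of the study, cortical RNA was extracted with Trizol, poly(A)-selected and made into TruSeq libraries, and the submitters' processing notes name TopHat, RSEM, DESeq and build mm9. The authors deposited 1 table of normalized FPKM per gene and mouse, with no counts, so a log-scale test replaced a count test. Gene spans (GENCODE) and promoter windows (RefSeq) are from GRCm38 and were not converted.

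FPKM was analyzed as log2(FPKM + 1) with limma 3.58.1 (eBayes with trend) in R 4.3.3, over the 14385 genes that averaged 0.5 FPKM or more, comparing 3 depleted with 3 control mice without covariates. Benjamini-Hochberg adjustment covered all genes tested, with the study's threshold of 0.1. The groups came from the sample titles, and the labels name no batch. A difference understates the change of low genes. On simulated data, 179 of 200 genes given a log2 change of 1 were recovered, with 19 false calls. The changed genes were drawn only from those of higher mean level, with normal noise of the same SD in both groups. The simulation held no outlying mouse and no larger spread in depleted mice. It also changed 200 genes at once, which eases the adjusted threshold, whereas 4 genes passed in these data. Its recovery is therefore not the power of the test in these data. In particular, it does not apply to genes of low level or to genes set by A4.

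FPKM values of genes with 1 transcript fell in steps of 1 fragment, which gave the depth of each library (3530000 to 20200000 fragments). Between 69.5% and 74.9% of low values lay within 0.125 of a whole fragment, so fragment numbers are estimates. Transcript lengths used for this were from GRCm38.

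The 9 genes and all lists were chosen with earlier results of these data known. From each other list the text names the highest and lowest tested gene, any called, and, for the gp130 and relatives lists, those with groups apart; other names were chosen after their values were seen. Alternatives were another pseudocount, filters, scalings, limma settings, threshold and each mouse left out.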

Additional observations from a re-analysis of the deposited data

How the results depend on the processing

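None of the 8 tested genes passed the adjusted threshold with limma under any of the 16 alternatives run (0 in each, with 2 at an unadjusted p under 0.05 in the fit as reported), and their adjusted p ranged from 0.219 to 0.982. Of 119 member differences under alternatives, 116 kept direction and side of the threshold. The other 3 reversed: Lcn2 to -0.086 and Serpina3n to -0.048 without replicate 4, and S1pr3 to -0.079 without replicate 5. With each mouse left out in turn, these genes reached at most 0.95, 1.08 and 0.14. The cause was not tested. Array weights, which gave A4 a weight of 0.304, lowered Serpina3n to 0.26 and Lcn2 to 0.25. A pseudocount of 0.1 raised Lcn2 to 1.10 and Cd44 to 0.43.

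Over all genes tested, 4 passed, 2 without the mean-variance trend, 20 with array weights, and 2 to 29 with 1 mouse left out (22 without A4, 29 without A5). The depth of A5 limits the genes of low level. The control mice were littermates, but the labels give no litter or pairing, so no paired analysis was possible.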

Other observations

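The genes whose pattern over the 6 mice was most like the mean z-score of the 8 tested genes were Mcm6, Sap30, Spata7, Mybbp1a and Atp6v1b2. Pearson's r was 0.996, 0.995, 0.993, 0.991 and 0.991 over mice that include the outlying A4. Without A4 it was 0.98, 0.972, 0.976, 0.979 and 0.945 for the same genes, which were picked with A4 included. Mcm6 encodes a subunit of the DNA replication helicase, and measured 2.66, 2.77 and 3.41 FPKM in control mice and 8.89, 4.81 and 3.51 FPKM in mice A4 to A6. These genes were the extremes of 13215 candidates, so high values are part of the selection, and no p is given.

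Ptx3, a secreted pentraxin of the ischemia-associated list, was under the minimum for testing and was chosen here after its values were seen. It measured 0.04, 0.03 and 0.06 FPKM in control mice and 0.9, 0.15 and 0.55 FPKM in mice A4 to A6, so its groups did not overlap.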
